A study of Mus musculus with 6 samples.

Results

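The genes described here encode the enzymes of glycolysis, the pentose phosphate pathway and the citrate cycle, together with the hypoxia-inducible factor Hif1a, its prolyl hydroxylases, its target Vegfa and the itaconate enzyme Acod1. They were found by name, as the probes of the deposited value table whose annotated gene symbol was one of 47 listed genes. Of the 47 genes, 34 had a probe (61 probes of 16281 in the table) and 27 had values on all 6 arrays, among 11364 features tested.

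The cells were RAW 264.7, an established line of mouse macrophage-like cells, and every sample came from it. The treated cells received bacterial lipopolysaccharide (LPS) at 100 ng/ml with LPS-binding protein (LBP), which carries LPS to the receptor complex, at 100 pM. Untreated cells of the same line were the controls, and total RNA of both was taken after 4 h. Each of the 6 two-colour arrays carried treated and untreated RNA in different dyes, with treated RNA in Cy5 on 3 arrays and in Cy3 on the other 3, numbered as sets 1 to 3 in each orientation.

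The values are log2 ratios, written below as treated over untreated, so that a value above 0 is a higher RNA level after treatment. This direction rests on the labels, which name the Cy5 RNA the test and the Cy3 RNA the control. The change of a gene is the mean of the 3 sets ± SD (n = 3 sets), where a set is the mean of its arrays of both dye orientations. Genes are said to have risen or fallen where limma, fitted to all 11364 features, gave a Benjamini-Hochberg adjusted p below 0.05. Whether the sets were separate cultures is not stated in the labels, and these p-values measure only the spread between sets, which may be technical. A ratio of bulk RNA cannot tell apart fewer cells of a type and less RNA per cell, and it gives no level that could be compared between genes.

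Glycolysis splits glucose into pyruvate in the cytosol and yields ATP, the pentose phosphate pathway branches off at glucose 6-phosphate to make NADPH and ribose, and the citrate cycle burns acetyl-CoA in the mitochondrion. Macrophages that meet LPS are known to take up more glucose and to release lactate. They are also known to accumulate succinate and itaconate from a citrate cycle that runs in segments, and HIF-1, a transcription factor held down by prolyl hydroxylases, is known to drive many glycolytic genes.

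Both known LPS responders looked up rose, Tnf by 2.08 ± 0.18 (adjusted p = 9.01e-07) and Il1b by 4.17 ± 0.055 (1.59e-08). Of 8 measured macrophage markers, 4 rose (Adgre1 1.10, Fcgr1 1.14, Lyz2 0.77 and Spi1 0.50) and Csf1r fell by 0.30. Of 19 measured markers of T cells, B cells, neutrophils, fibroblasts and epithelia, 2 rose (Cd4 0.23 and Elane 0.29) and 0 fell. The share that rose was 50% of the macrophage markers and 10.5% of the others, where 14.0% of all features rose and 15.0% fell. The marker values are ratios, so whether the other cell types were present could not be read from them. Krt18 and Cdh1, both epithelial, were each listed at exact 0 on some arrays.

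The changes in RNA of the 27 genes measured on all 6 arrays were small and ran both ways. Acod1, which lay between 4.83 and 6.64 on the 3 arrays that measured it, was not among them and is described below. Of the 27 measured genes, 2 rose (Hk2 and Hif1a), 8 fell (Pfkfb3, Idh1, Vegfa, Aco1, Pfkm, Pgd, Taldo1 and Idh3a) and 17 did not pass the test. That is 7.41% risen and 29.6% fallen, where 14.0% of all features rose and 15.0% fell. Their median change was -0.079, against 0.00079 over all features, and 16 of the 27 (59.3%) lay below 0, against 49.7% of all features. The median size of a change, whatever its sign, was 0.102 for these genes and 0.083 for all features, and the median SD between sets was 0.067 and 0.074. None of the 27 reached a 2-fold change, which 231 features (2.03%) did. The smallest called change among them was 0.14.

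Many of the small changes differed between the dye orientations. Among the 27 genes, 6 were both called and of 1 sign on all 6 arrays (22.2%, as for all features, also 22.2%), namely Hk2, Hif1a, Pfkfb3, Idh1, Vegfa and Pfkm. A dye effect, tested with the treatment cancelled, was called for 0 of the 27 genes and for 0% of all features by limma. An unadjusted limma p below 0.05 for it was found in 6 of the 27 genes and in 2630 of all 11364 features. Across the 27 genes, arrays of the same dye orientation correlated at 0.364 to 0.801 and arrays of opposite orientation at -0.0750 to 0.563, and genes are not independent replicates.

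**Figure D1:**
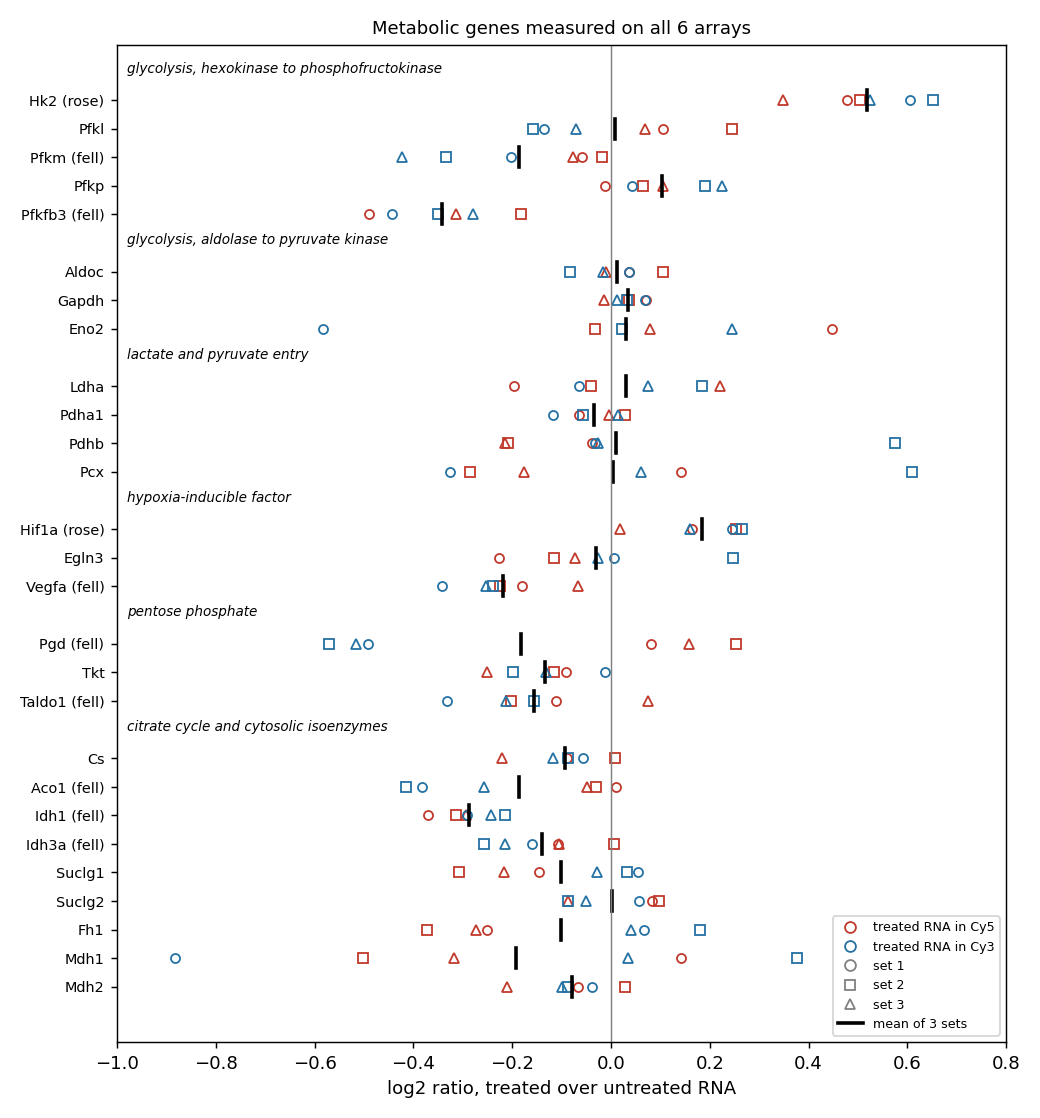
Change of the 27 measured genes (log2 treated over untreated, horizontal axis) by role, with 1 mark per array, coloured by dye orientation and shaped by set, and a bar for the mean of 3 sets. Hk2 lies to the right of 0 on every array and Pfkfb3 and Idh1 to the left, while Mdh1, Eno2 and Pcx have arrays far out on both sides and Pdhb has 1 array far out above 0.

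The entry of glucose into glycolysis held the largest rise and the largest fall of the 27 genes measured on all 6 arrays. Hk2, the inducible hexokinase that traps glucose as glucose 6-phosphate, had 0.48, 0.50 and 0.35 with treated RNA in Cy5 and 0.61, 0.65 and 0.52 with treated RNA in Cy3, in sets 1 to 3. All 6 values lay above 0.3, and the lowest was the Cy5 array of set 3. Its mean was 0.52 ± 0.073, 1.43-fold higher after treatment, with a 95% interval of 0.41 to 0.63 and a limma adjusted p of 1.60e-04. The call held in every alternative fit run.

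Pfkfb3 makes fructose 2,6-bisphosphate, the strongest activator of phosphofructokinase. Its values were -0.49, -0.18 and -0.31 with treated RNA in Cy5 and -0.44, -0.35 and -0.28 with treated RNA in Cy3. It lay below 0 on all 6 arrays, lowest in set 1 in both orientations. It fell by 0.34 ± 0.11, 1.27-fold lower, with an interval of -0.47 to -0.22 and an adjusted p of 0.00232 by limma. On the 3 Cy5 arrays alone the adjusted p was 0.0590.

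Of the 3 subunits of phosphofructokinase-1, the committing step, 1 fell and the other two did not pass the test. Pfkm, the muscle-type subunit, fell by 0.19 ± 0.060 (limma adjusted p = 0.0184). It was below 0 on all 6 arrays, at -0.059, -0.018 and -0.077 with treated RNA in Cy5 and at -0.20, -0.33 and -0.42 with treated RNA in Cy3. The second orientation therefore carried most of its fall, and without set 3 the adjusted p was 0.0700. Pfkl, the liver-type subunit, had a mean of 0.0088 ± 0.030 (adjusted p = 0.906), and Pfkp, the platelet-type subunit, 0.10 ± 0.077 (adjusted p = 0.160). Pfkp minus Pfkm was 0.29 ± 0.13 and above 0 on 6 of 6 arrays, Pfkl minus Pfkm was 0.19 ± 0.070 and also above 0 on 6 of 6, and Pfkp minus Pfkl was 0.094 ± 0.068 and above 0 on 4 of 6. These differences between probes were not tested. Hk1 was listed at exact 0 on all 6 arrays, and the annotation gave Hk3, Gpi1 and Pfkfb4 no probe.

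The later steps of glycolysis, from aldolase to pyruvate kinase, showed 0 calls among their 3 genes with full values. Among all features 14.0% rose and 15.0% fell. Gapdh, the glyceraldehyde 3-phosphate dehydrogenase often used as a reference, had a mean of 0.035 ± 0.035 with an interval of -0.065 to 0.13 (limma adjusted p = 0.610). Its 6 arrays gave 0.072, 0.036 and -0.014 with treated RNA in Cy5 and 0.068, 0.033 and 0.013 with treated RNA in Cy3. They were the most closely grouped of the measured genes, and this mean was taken over 10 of the 25 Gapdh probes. The 10 probes with values on all 6 arrays ranged from -0.060 to 0.12 and 0 of them were called. Another 10 were measured on some arrays only, and 5 on none. Among the partly measured probes, 4 had 8 values between -2.08 and -3.12 as deposited, and these values kept their sign as deposited where both dye orientations were measured. A further partly measured probe lay above 0 on its 5 arrays as treated over untreated. It had 0.28 and 0.35 with treated RNA in Cy5 and 1.31, 1.16 and 1.00 with treated RNA in Cy3. These Cy3 values lay above every value of the probes with full values, the highest of which was 0.32. The partly measured probes entered no test.

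**Figure D2:**
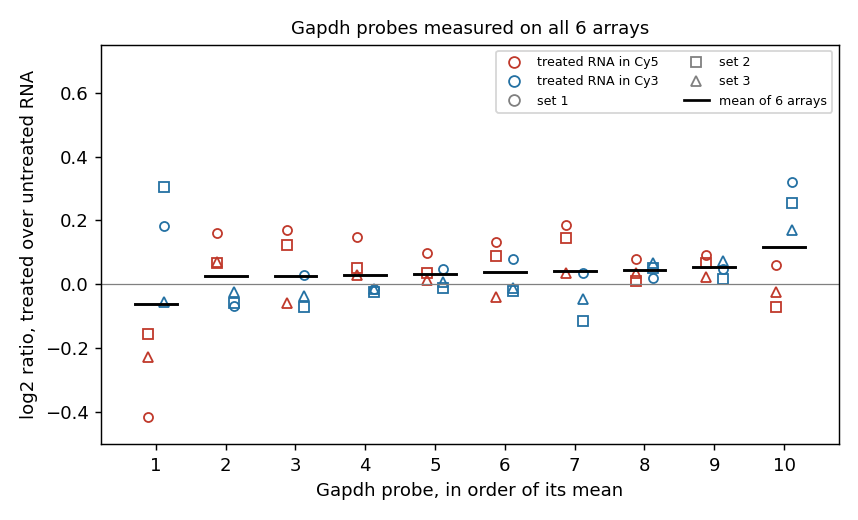
Change at each of the 10 Gapdh probes with values on all 6 arrays (log2 treated over untreated, vertical axis), with 1 point per array coloured by dye orientation and shaped by set, and a bar for the mean. The means lie between -0.060 and 0.12, on both sides of 0.

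Aldoc, an aldolase isoenzyme, had 0.012 ± 0.025 (limma adjusted p = 0.873), and its 2 probes gave -0.024 and 0.047. Eno2, the neuronal enolase isoenzyme, had 0.030 ± 0.12 (adjusted p = 0.741). Its arrays gave 0.45, -0.032 and 0.080 with treated RNA in Cy5 and -0.58, 0.021 and 0.24 with treated RNA in Cy3. The widest values were the arrays of set 1, on opposite sides of 0.

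Several main isoenzymes of this stretch had only partial data and no test on all 3 sets. Aldoa had 0.40 and 0.18 with treated RNA in Cy5 (sets 2 and 3) and -0.28 with treated RNA in Cy3 (set 3). Pgk1, the first ATP-yielding enzyme, had 0.10 and 0.29 in set 1 and 0.18 on the Cy5 array of set 3, all above 0. Pkm, pyruvate kinase, had 5 arrays and 2 complete sets, 0.019 and -0.077, with a mean of -0.029 ± 0.067 (SD, n = 2 sets) and a limma adjusted p of 0.774 in the fit that asked for at least 2 sets. Pgam1 was listed at exact 0 on all 6 arrays, and Tpi1 and Eno1 had no annotated probe.

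Genes of lactate formation and of pyruvate entry into the mitochondrion gave 0 calls of 4, where 14.0% of all features rose and 15.0% fell. Ldha, which turns pyruvate into lactate, gave -0.20, -0.041 and 0.22 with treated RNA in Cy5 and -0.065, 0.19 and 0.075 with treated RNA in Cy3. Both arrays of set 1 lay below 0, both of set 3 above it, and those of set 2 on either side. The mean was 0.030 ± 0.14 with an interval of -0.11 to 0.17 (limma adjusted p = 0.767), so a change of the size seen for Hk2 lies outside the interval.

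Pdha1, the pyruvate dehydrogenase E1 alpha subunit, had -0.033 ± 0.051 (limma adjusted p = 0.634). Pdhb, the E1 beta subunit, had -0.038, -0.21 and -0.21 with treated RNA in Cy5 and -0.033, 0.58 and -0.027 with treated RNA in Cy3. A single array, the Cy3 array of set 2, stood above 0, and the mean was 0.0094 ± 0.16 (adjusted p = 0.934). Pcx, pyruvate carboxylase, had 0.14, -0.29 and -0.18 with treated RNA in Cy5 and -0.33, 0.61 and 0.060 with treated RNA in Cy3, with a mean of 0.0038 ± 0.14 (adjusted p = 0.972). The same Cy3 array of set 2 was its highest. Ldhb had 1 array, at -0.068, and Pdk1 and Pdk3, kinases that switch pyruvate dehydrogenase off, had no annotated probe.

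Of the 3 measured genes of the hypoxia-inducible factor group, Hif1a rose, Vegfa fell and Egln3 did not pass the test. Among 14 measured neighbouring genes of the HIF pathway, described below, 4 rose and 1 fell, where 14.0% of all features rose and 15.0% fell. Hif1a, the oxygen-regulated subunit, gave 0.16, 0.25 and 0.018 with treated RNA in Cy5 and 0.24, 0.27 and 0.16 with treated RNA in Cy3. It was above 0 on all 6 arrays, lowest in set 3. The mean of 0.18 ± 0.087 was 1.14-fold higher, with an interval of 0.070 to 0.30 and a limma adjusted p of 0.0266. The adjusted p was 0.0904 without set 1, 0.129 without set 2, 0.224 on the Cy5 arrays alone and 0.0520 on the Cy3 arrays alone.

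Vegfa, the angiogenic growth factor that HIF-1 is known to induce, fell by 0.22 ± 0.052, with an interval of -0.32 to -0.11 (limma adjusted p = 0.00843). Its 6 values were -0.18, -0.22 and -0.067 with treated RNA in Cy5 and -0.34, -0.24 and -0.25 with treated RNA in Cy3, all below 0. On the Cy5 arrays alone the adjusted p was 0.163. Egln3, a prolyl hydroxylase that marks HIF-1 for destruction, had -0.031 ± 0.090 (adjusted p = 0.696), with arrays from -0.23 to 0.25. Egln1 had no annotated probe.

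Acod1 makes itaconate from cis-aconitate and is known for its strong induction in activated macrophages. It was measured on 3 arrays only and so was not tested. Its values were 6.64 on the Cy5 array of set 2, and 5.87 and 4.83 on the Cy5 and Cy3 arrays of set 3. All 3 lay far above 0, and 6.64 is the largest value in the table, a ratio of 100 that only this value reached, so it may be a ceiling. The mean of set 3 was 5.35, 40.8-fold higher after treatment. It ranked 1 of 12087 features with values in that set, ahead of the chemokine gene Cxcl2 at 4.56. The other 3 arrays listed it at exact 0, and as described these were taken as not measured.

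Promoter windows are shown for Acod1, Hk2, Pfkfb3 and Idh1, which had the largest changes, and for Hif1a, to show where the hypoxia response core, the letters ACGTG that HIF-1 is known to bind, is present and where it is not. The sequences are from RefSeq on GRCm38.p6 and run from 250 bases before to 50 after an annotated start, on the gene's strand. Capitals mark ACGTG or, for the other strand, its complement CACGT. Hif1a also holds CACGTG, the E-box, in which the core overlaps itself on both strands. The windows lie at chr14:103046762-103047061 (plus strand) for Acod1, chr6:82774405-82774704 (minus strand) for Hk2, chr12:73907617-73907916 (plus strand) for Hif1a, chr2:11553880-11554179 (minus strand) for the first of 2 Pfkfb3 windows and chr1:65186430-65186729 (minus strand) for the first of 2 Idh1 windows. Neither Idh1 window held the core, and so the one shown has no capitals. The second Pfkfb3 window held an E-box, and of the 2 Vegfa windows 1 held the core and 1 did not.
Acod1: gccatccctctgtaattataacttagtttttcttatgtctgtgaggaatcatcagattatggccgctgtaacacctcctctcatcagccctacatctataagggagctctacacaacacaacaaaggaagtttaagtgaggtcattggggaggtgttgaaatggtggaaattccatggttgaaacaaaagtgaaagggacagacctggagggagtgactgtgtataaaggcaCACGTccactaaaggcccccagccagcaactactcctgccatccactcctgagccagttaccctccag
Hk2: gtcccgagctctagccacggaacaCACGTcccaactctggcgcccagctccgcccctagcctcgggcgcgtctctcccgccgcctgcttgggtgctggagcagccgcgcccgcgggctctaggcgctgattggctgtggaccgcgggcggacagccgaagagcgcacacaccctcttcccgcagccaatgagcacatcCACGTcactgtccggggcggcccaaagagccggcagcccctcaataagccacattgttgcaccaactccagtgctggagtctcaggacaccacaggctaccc
Hif1a: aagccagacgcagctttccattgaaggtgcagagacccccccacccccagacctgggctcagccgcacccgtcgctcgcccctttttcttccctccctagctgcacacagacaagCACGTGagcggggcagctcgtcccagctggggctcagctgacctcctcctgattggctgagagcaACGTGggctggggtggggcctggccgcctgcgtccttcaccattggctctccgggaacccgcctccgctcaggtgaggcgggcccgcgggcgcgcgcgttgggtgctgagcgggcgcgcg
Pfkfb3: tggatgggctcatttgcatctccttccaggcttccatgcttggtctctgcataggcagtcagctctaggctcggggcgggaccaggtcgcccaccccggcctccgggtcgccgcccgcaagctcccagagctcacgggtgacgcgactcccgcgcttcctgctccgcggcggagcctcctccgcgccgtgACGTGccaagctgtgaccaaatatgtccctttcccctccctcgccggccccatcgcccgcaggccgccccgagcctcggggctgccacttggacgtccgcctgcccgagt
Idh1: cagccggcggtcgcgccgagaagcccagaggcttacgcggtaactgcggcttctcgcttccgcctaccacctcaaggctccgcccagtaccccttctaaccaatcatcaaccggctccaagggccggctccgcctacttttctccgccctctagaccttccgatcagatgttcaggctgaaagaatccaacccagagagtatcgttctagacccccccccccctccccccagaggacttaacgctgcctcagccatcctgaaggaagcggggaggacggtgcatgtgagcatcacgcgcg

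Of the 47 genes, 46 had a promoter window in the table, and 24 of them (52.2%) held the core in at least 1 window, against 21.8% of all 27025 genes. Per window the shares were 47.1% of 68 and 19.6% of all. The windows of these genes also held more CpG dinucleotides, with a median of 20 against 7 over all windows. Among all windows with at least 20 CpG, the core was present in 29.0%. The part of base composition in the difference was not tested. The core was present for 2 of the 2 genes that rose, for 3 of the 7 that fell and had a window (Pfkfb3, Pfkm and Vegfa) and for 7 of the 17 that were not called. Vegfa was counted only through its window at chr17:46025114-46025413, as its window at chr17:46032328-46032627 did not hold the core. Which of these starts is used in these cells was not tested. A match is a run of letters and says nothing of binding in these cells. The E-box CACGTG was found in 6 of 46 genes (8.09% of all genes), the interferon response core GAAANNGAA in 4 of 46 (9.76%) and the kappaB core GGGANTTCC in 0 of 46 (1.92%), each searched on both strands.

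Of the pentose phosphate genes, 2 of 3 fell, where 15.0% of all features fell, and the third lay below 0 on every array. Pgd, the NADPH-yielding 6-phosphogluconate dehydrogenase, fell by 0.18 ± 0.024 (limma adjusted p = 0.0146), but its dye orientations disagreed in direction. It had 0.081, 0.25 and 0.16 with treated RNA in Cy5 and -0.49, -0.57 and -0.52 with treated RNA in Cy3, so its mean depended on both orientations being weighed alike. The change was 0.16 on the Cy5 arrays alone and -0.53 on the Cy3 arrays alone, and without set 1 the adjusted p was 0.0803.

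Taldo1, the transaldolase of the non-oxidative branch, fell by 0.16 ± 0.079 (limma adjusted p = 0.0444), close to the threshold and not called under 12 of the 16 alternatives, in 1 of which the filter on equal signs removed it from the test. Its arrays gave -0.11, -0.20 and 0.075 with treated RNA in Cy5 and -0.33, -0.16 and -0.21 with treated RNA in Cy3, with the Cy5 array of set 3 alone above 0. Tkt, the transketolase of the same branch, had -0.091, -0.11 and -0.25 with treated RNA in Cy5 and -0.012, -0.20 and -0.13 with treated RNA in Cy3. Its mean of -0.13 ± 0.073 did not pass (adjusted p = 0.0724), although it was below 0 on 6 of 6 arrays. G6pdx, the first enzyme of the pathway, had no annotated probe.

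Of the 9 measured citrate cycle genes and cytosolic isoenzymes, 8 had a mean below 0, 3 fell and 0 rose, with a median change of -0.10. Among all features 49.7% lay below 0, 15.0% fell and 14.0% rose. Idh1, the cytosolic NADP-dependent isocitrate dehydrogenase, had the largest fall of the 9. Its arrays gave -0.37, -0.31 and -0.29 with treated RNA in Cy5 and -0.29, -0.21 and -0.24 with treated RNA in Cy3, all below 0 and close together. It fell by 0.29 ± 0.038, 1.22-fold lower, with an interval of -0.39 to -0.19 and a limma adjusted p of 0.00195. This call held in every alternative fit run.

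Aco1, the cytosolic aconitase that also acts as an iron-regulatory protein, fell by 0.19 ± 0.035 (limma adjusted p = 0.0140). Its Cy5 arrays gave 0.011, -0.030 and -0.048 and its Cy3 arrays -0.38, -0.41 and -0.26. The fall lay almost wholly in the Cy3 arrays, and the adjusted p was 0.0557 without set 1 and 0.0695 without set 2. Idh3a, the catalytic subunit of the mitochondrial NAD-dependent isocitrate dehydrogenase, fell by 0.14 ± 0.018 (adjusted p = 0.0408). Its Cy5 arrays gave -0.11, 0.0066 and -0.11 and its Cy3 arrays -0.16, -0.26 and -0.22, so the Cy3 arrays carried most of the fall. Its 2 probes gave -0.15 and -0.13, and neither was called alone (adjusted p = 0.0504 and 0.0660). Leaving out set 1, 2 or 3 gave an adjusted p of 0.148, 0.126 or 0.0989.

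The other citrate cycle genes did not pass. Cs, the citrate synthase, had -0.093 ± 0.067 (limma adjusted p = 0.185), Mdh2, the mitochondrial malate dehydrogenase, -0.079 ± 0.067 (adjusted p = 0.260) and Suclg1, the succinyl-CoA ligase alpha subunit, -0.10 ± 0.049 (adjusted p = 0.132). Suclg2, the beta subunit of the GTP-forming ligase, had 0.0019 ± 0.069 (adjusted p = 0.981). Suclg2 minus Suclg1 was 0.10 ± 0.046 and above 0 on 4 of 6 arrays, which was not tested.

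Fh1, the fumarate hydratase, had tightly grouped sets at -0.10 ± 0.012 (limma adjusted p = 0.114), but its orientations opposed each other. It had -0.25, -0.37 and -0.27 with treated RNA in Cy5 and 0.067, 0.18 and 0.041 with treated RNA in Cy3. Mdh1, the cytosolic malate dehydrogenase, had 0.14, -0.50 and -0.32 with treated RNA in Cy5 and -0.88, 0.38 and 0.034 with treated RNA in Cy3. These ran over 1.26, the widest span of the measured genes, and the mean was -0.19 ± 0.16 (adjusted p = 0.0604). Without set 2 it was called, at -0.26 (adjusted p = 0.00382). Mdh1 minus Mdh2 was -0.11 ± 0.18 and above 0 on 3 of 6 arrays. Ogdh, Idh2, Idh3b and Idh3g had no annotated probe.

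**Figure D3:**
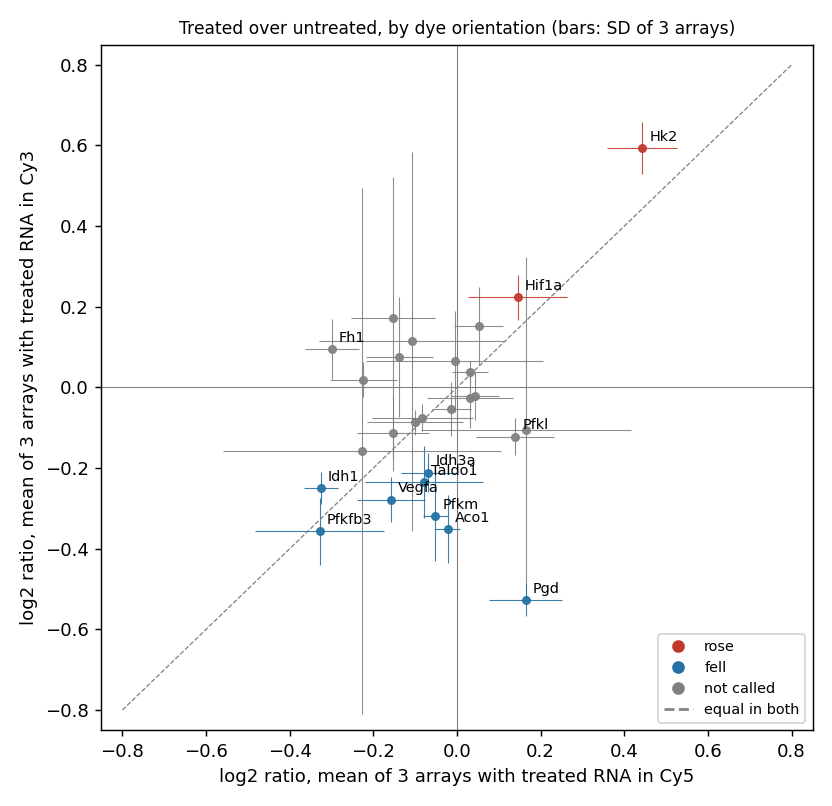
Mean change of each measured gene on the 3 arrays with treated RNA in Cy5 (horizontal axis) against the 3 arrays with treated RNA in Cy3 (vertical axis), both log2 treated over untreated, with 1 point per gene and bars for the SD of the 3 arrays. Pfkfb3 and Idh1 lie near the dashed line of equal change and Hk2 and Hif1a above 0 on both axes, while Pgd (0.16 and -0.53) and Fh1 (-0.30 and 0.096) lie in the quadrants of opposite sign.

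The neighbouring genes of these pathways, 85 listed beside the 47, had values on all 6 arrays for 59. Of these 9 rose (15.3%), 14 fell (23.7%) and 36 did not pass, with a median of -0.038, where 14.0% of all features rose and 15.0% fell. The share that rose was close to that of all features. Glucose and lactate transport had 2 risen and 2 fallen of 6, other glycolysis and gluconeogenesis enzymes 1 and 3 of 12, and pyruvate entry 0 and 1 of 5. The HIF pathway had 4 and 1 of 14, other pentose phosphate enzymes 1 and 3 of 8, and other citrate cycle and anaplerotic genes 1 and 4 of 14.

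Among transporters, the glucose carrier Slc2a1 rose by 0.57 ± 0.037 (limma adjusted p = 6.18e-05), beside Hk2, which acts on the glucose it admits. Slc2a1 was above 0 on all 6 arrays, but its mean was 0.80 with treated RNA in Cy5 and 0.34 with treated RNA in Cy3. Slc16a3, the lactate exporter MCT4, rose by 0.19 ± 0.090 (adjusted p = 0.0224), whereas Slc2a8 fell by 0.36 ± 0.030 (5.67e-04) and the monocarboxylate carrier Slc16a7 by 0.27 ± 0.13 (0.0103). Without set 2 the adjusted p of Slc16a3 was 0.126, and without set 3 it was 0.0743.

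HIF pathway genes that rose were P4ha1, a collagen prolyl hydroxylase (0.56 ± 0.057, limma adjusted p = 8.27e-05), Vhl, which targets HIF-1 for degradation (0.47 ± 0.070, 2.42e-04), the haem oxygenase Hmox1 (0.45 ± 0.13, 9.53e-04) and Ndrg1 (0.20 ± 0.046, 0.0125). Without set 2 the adjusted p of Ndrg1 was 0.0607. Ddit4, a hypoxia-induced inhibitor of mTORC1, had the largest fall of the 59 genes, -0.61 ± 0.032 (adjusted p = 4.24e-05). The vasodilator peptide gene Adm had 0.21 ± 0.23 (adjusted p = 0.110), with -0.45 as the mean of the Cy5 arrays and 0.86 as the mean of the Cy3 arrays. Without set 1 its mean was 0.34 (adjusted p = 0.00135).

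In the pentose phosphate list, Rpe, the ribulose phosphate epimerase, rose by 0.36 ± 0.099 (limma adjusted p = 0.00150). Prps2, which makes phosphoribosyl pyrophosphate, fell by 0.36 ± 0.065 (8.71e-04), the sedoheptulose kinase Shpk by 0.31 ± 0.22 (0.0235) and Pgls, the lactonase of the oxidative branch, by 0.19 ± 0.040 (0.0137). Rpia, the ribose phosphate isomerase, had -0.13 ± 0.063 (adjusted p = 0.0683). Without set 3 the adjusted p was 0.0923 for Shpk and 0.0532 for Pgls.

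In the citrate cycle and anaplerotic list, Slc25a10, the mitochondrial dicarboxylate carrier, fell by 0.44 ± 0.098 (limma adjusted p = 5.55e-04), the glutamine synthetase Glul by 0.34 ± 0.11 (0.00259) and the glutamate dehydrogenase Glud1 by 0.21 ± 0.038 (0.00911). The pyruvate dehydrogenase E2 subunit Dlat fell by 0.20 ± 0.088 (0.0177). In the glycolysis list, Bpgm, the bisphosphoglycerate mutase, fell by 0.28 ± 0.0069 (0.00184) and the enolase isoenzyme Eno3 by 0.20 ± 0.096 (0.0196). Fbp2, a fructose bisphosphatase, rose by 0.17 ± 0.079 (0.0303) and the phosphoglucomutase relative Pgm2l1 had -0.14 ± 0.098 (0.0749). Without set 1 the adjusted p was 0.104 for Dlat and 0.0756 for Eno3, and without set 2 it was 0.0687 for Eno3 and 0.0331 for Pgm2l1. Fbp2 was not called without set 1 (0.0589), set 2 (0.196) or set 3 (0.0512). These SDs are between set means, in which the dye orientations are averaged. For most of these genes the means of the orientations lay apart, though limma called a dye effect for none of them. Means with treated RNA in Cy5 and in Cy3 were -0.43 and -0.13 for Bpgm, -0.35 and -0.060 for Dlat and -0.34 and -0.072 for Eno3. They were -0.15 and -0.52 for Glul, -0.28 and -0.14 for Glud1, 0.32 and 0.025 for Fbp2 and -0.25 and -0.041 for Pgm2l1. Slc25a10 was alike in both, at -0.42 and -0.46.

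**Figure D4:**
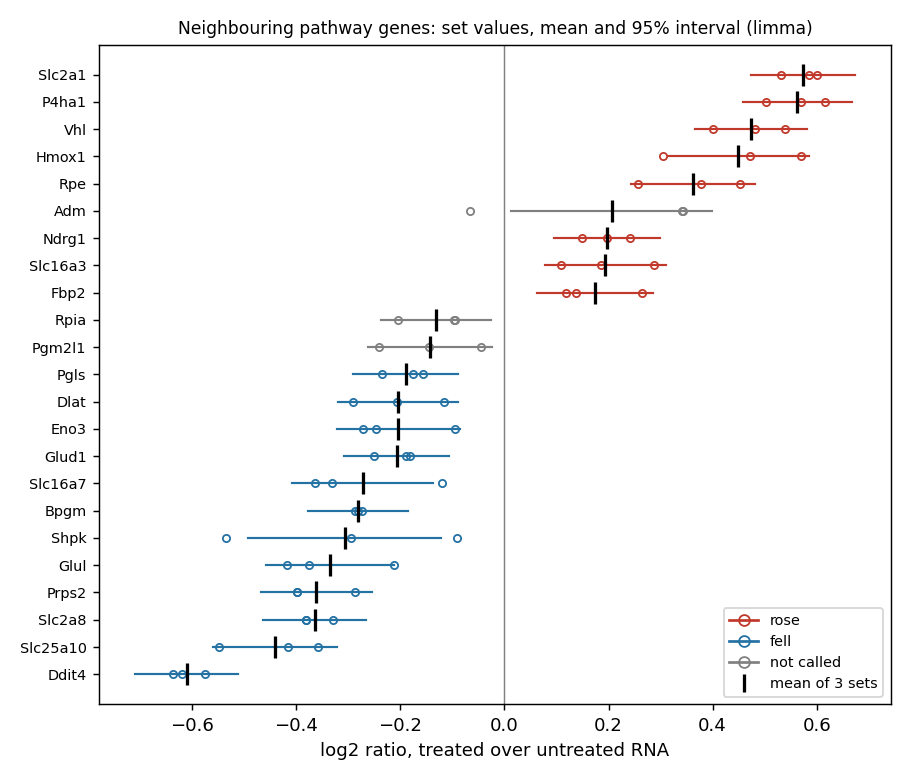
Change (log2 treated over untreated, horizontal axis) of the called and the 3 largest uncalled neighbouring genes named in the text, ordered by mean, with 1 circle per set, a tick for the mean of 3 sets and a line for its 95% interval by limma. Slc2a1 and P4ha1 lie furthest to the right among the called genes and Ddit4 furthest to the left.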

How the data were processed

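Per the labels, 6 two-colour arrays each compared total RNA of treated and untreated cells. The deposited value table holds log2 ratios per probe and array. The base follows from its largest value, log2 of 100, and the Cy5 over Cy3 direction from the labels. Scanner, background correction and normalization are not given in the sources used here, and the table holds no intensities. Signs were turned on the 3 arrays whose Cy3 dye marked the treated RNA. Exact zeros (1254 to 2086 per array) were taken as not measured, 13415 probes with values on all 6 arrays were kept, and probes of 1 gene were averaged. Symbols came from the platform annotation (13738 probes with 1 symbol, 52 with several, 2491 with none), and all 34 listed genes with a probe matched the GRCm38.p6 gene table by Entrez ID. The number of arrays limits the precision.

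Each set was read as a dye swap of 1 RNA pair, an assumption. The 3 set means were tested against 0 with limma 3.58.1 in R 4.3.3 (lmFit and eBayes, two-sided, adjusted p below 0.05 over 11364 features), and intervals are 95% and unadjusted. The script was tested on simulated data. The set numbers were not shown to pair RNA, since sign-turned arrays of a set did not deviate together. Their deviations from the orientation means correlated at -0.484, -0.512 and -0.0203 in sets 1 to 3, and at 0.484, 0.512 and 0.0203 as deposited. Deviations of opposite sign partly cancel in a set mean, which can narrow the spread that the p-values measure.

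The 47 genes, the neighbouring genes and the marker lists were drawn up by name and pathway, with earlier results of these data known. The rule for naming gave every listed gene's mean and SD, and all 6 array values for called genes with a change of 0.3 or more, for the 4 uncalled genes of widest range and for Gapdh, Hif1a and Ldha. Array values of the other called genes, Tkt and Fh1 were added after their values were seen. Of the neighbouring genes, the rule named up to 20 called and 3 uncalled by size, and 3 called genes beyond it are counted only. Alternatives were the set number as no or random block, each orientation alone, each set left out, median centring, scale and quantile normalization, a minimum of 2 measured sets, probes kept single, exact zeros kept, robust variances, a sign filter and an adjusted p below 0.01.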

Additional observations from a re-analysis of the deposited data

Results flagged for a closer look

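In 3 of the 27 measured genes (11.1%) every array of one dye orientation lay on the opposite side of 0 from every array of the other, as in 1473 of all features (13.0%). They were Pfkl, Pgd and Fh1, with a dye effect (the mean of the unturned log2 ratios of Cy5 over Cy3, in which the treatment cancels) of 0.131, 0.345 and -0.197. With the sets as replicates the adjusted p of this effect was 0.194, 0.166 and 0.166 by limma. Over 6 arrays without set numbers it was 0.0849, 0.0194 and 0.0442.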

How the results depend on the processing

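Ratios were deposited without intensities, so dim spots could not be filtered, and the smallest called change of any feature was 0.13. Hk2 and Idh1 kept their calls in all alternatives run. Genes that rose numbered 2, and 1 on the Cy5 arrays alone, on the Cy3 arrays alone, with exact zeros kept, and at an adjusted p below 0.01, and 1 to 2 with a set left out. Genes that fell numbered 8, and 2 on the Cy5 arrays alone (Idh1, and Fh1, which was not called in the main fit). They numbered 5 where both orientations had to share a sign in every set (with Tkt gained, and Pgd, Taldo1, Aco1 and Idh3a left untested). That filter chose features by the signs of the same values that were then tested, so its calls are no independent check. Genes that fell numbered 3 at an adjusted p below 0.01, and 4 to 6 with a set left out (with Mdh1 gained without set 2). Neighbouring genes that rose numbered 9, and 5 on the Cy5 arrays alone and at an adjusted p below 0.01, and 5 to 8 with a set left out. Those that fell numbered 14, and 5 on the Cy5 arrays alone, 6 on the Cy3 arrays alone, 9 with exact zeros kept and 7 at an adjusted p below 0.01.

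With no replicate block, 2 genes rose and 7 fell (Taldo1 at 0.0541), and with the set as a random replicate block 2 rose and 9 fell (with Tkt at 0.0437). A dye effect was called for 2 genes without the block and 1 with it, against 0 with the 3 set means. Fbp2 was lost both without the block (adjusted p = 0.275) and with it (0.193).

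Changes of sign had these values. On the Cy3 arrays alone they were Pfkl -0.12, Aldoc -0.021, Eno2 -0.11, Egln3 0.075, Suclg1 0.020, Suclg2 -0.027, Fh1 0.096 and Rpia 0.044. On the Cy5 arrays alone they were Ldha -0.0055, Pdhb -0.15, Pcx -0.11, Pgd 0.16 and Adm -0.45. Scale normalization gave Pdhb -0.0021, Pcx -0.0057 and Suclg2 -0.0041, and quantile normalization -0.0065, -0.0066 and -0.0037. With a set left out, the ranges were Pfkl -0.0083 to 0.021, Aldoc -0.00089 to 0.024, Eno2 -0.036 to 0.078, Ldha -0.029 to 0.11, Pdhb -0.078 to 0.074, Pcx -0.075 to 0.052, Egln3 -0.080 to 0.0081 and Suclg2 -0.032 to 0.037. The cause was not tested.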
